A study of Mus musculus with 4 samples.

Results

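Bcl11b, Bcl11a, Satb1, Gfi1, Myb, Tox and Tox2 are transcription factors and chromatin regulators that direct or accompany the development of T cells in the thymus. These 7 genes were chosen by symbol, with earlier results of these data known, from 55536 annotated mouse genes. Total RNA was sequenced from T cells of the spleen in 4 libraries of 1 group, called libraries 1 to 4 after their biological replicate numbers. The mice were male B6CASTF1/J animals, 66 days old, from a cross of C57BL/6 females with CAST/EiJ males, and the labels describe the cells by the T cell receptor antigen CD3. Each library was made from 300 ng of RNA with ERCC spike-ins. As no other condition was sampled, genes are compared within a library, and the 4 libraries with each other. All 4 samples carry 1 shared donor identifier and the labels do not say whether each came from a separate animal, so p-values measure only the spread between these samples, which may be technical.

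Progenitors that enter the thymus become T cells stepwise: Notch signals and the factors they induce switch on T cell genes, and Bcl11b then closes off the natural killer and myeloid alternatives. Bcl11b and its paralog Bcl11a are zinc finger proteins that recruit the NuRD chromatin remodelling and deacetylase complex. Satb1 binds AT-rich DNA and organises chromatin loops in thymocytes, Gfi1 is a zinc finger repressor, Myb is an activator of early thymocyte genes, and the HMG box protein Tox is needed for the CD4 lineage and is known from exhausted cells.

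Libraries held between 14540725 and 17280908 estimated counts over mouse genes, and no pair of libraries agreed within sampling noise. The T cell label matched its markers: 11 of 11 T cell marker genes, among them Cd3e and Trac, reached at least 10 TPM in every library, with a summed level of 3073 to 3187 TPM. TPM is a level corrected for transcript length and scaled to the same total in every library. Library 4 stood apart in B cell and erythroid markers. The summed level of 10 B cell markers was 146 TPM there, against 11.8 to 17.8 TPM in libraries 1 to 3. That of 7 erythroid markers was 634 TPM, against 15.8 to 62.6 TPM. Library 2 was highest in neutrophil markers, at 28.5 TPM against 8.97 to 10 TPM.

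In TPM, the 7 factors spanned from one of the most abundant messages of the cells to means near 1 TPM. Satb1 had the highest mean level, 325 ± 10.5 TPM (SD, n = 4), which ranked 136 among 22028 protein-coding genes. Bcl11b followed at 85.2 ± 1.71 TPM, at rank 596. Myb at 18.7 ± 1.52 TPM and Tox at 16.9 ± 2.74 TPM lay side by side at ranks 3816 and 4164. Gfi1 had 8.38 ± 2.26 TPM, at rank 6505. These levels are sums over all transcripts of a gene, including retained-intron models, which held means of 12.4 TPM for Myb and 7.77 TPM for Tox. The 2 coding forms of Myb had 4.18 and 2.16 TPM and that of Tox 9.14 TPM, while all 4 models of Gfi1 are coding. Bcl11a with 1.45 ± 1.3 TPM and Tox2 with 1.3 ± 0.353 TPM ranked 9724 and 9876, at the lower end of the 10162 protein-coding genes with a mean of at least 1 TPM.

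**Figure D1:**
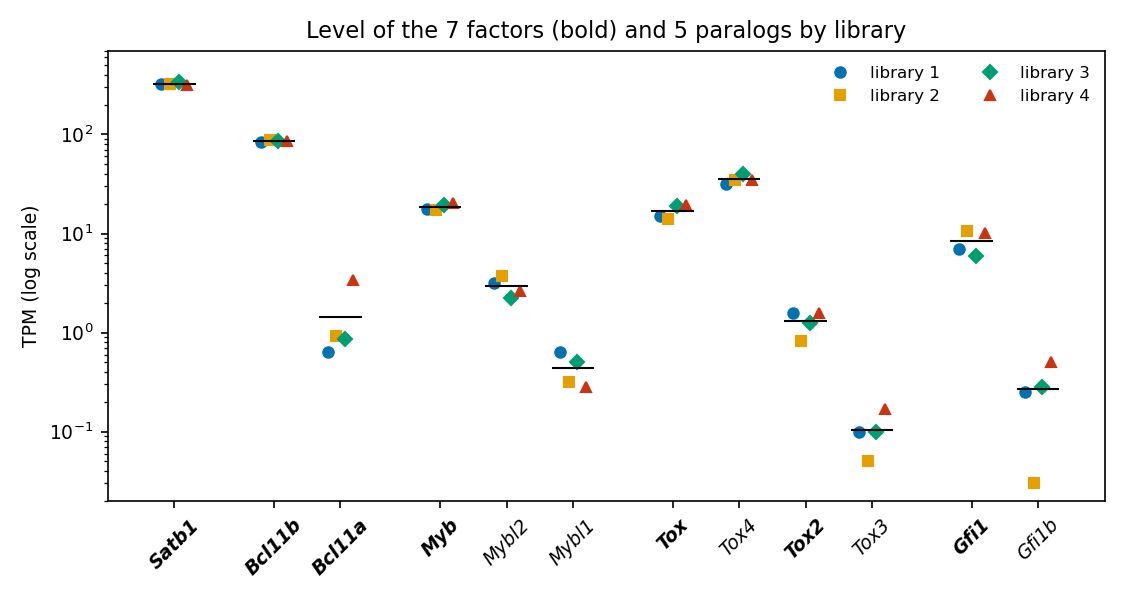
Level in TPM (vertical axis, log scale) of the 7 factors, in bold, and 5 paralogs in libraries 1 to 4, with each coloured symbol 1 library and each black line the mean. Bcl11b stands far above its paralog Bcl11a, and library 4 alone is high for Bcl11a.

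The order of the levels was examined within each library as the difference of log2(TPM + 1) between neighbours, tested by exact two-sided permutation of the signs, for which 0.125 is the smallest p that 4 libraries allow. It holds for the sum over all transcripts of a gene, and an order of the coding transcripts alone was not tested. Satb1 was above Bcl11b by 1.92 ± 0.052 (SD, n = 4), Bcl11b above Myb by 2.13 ± 0.12, Tox above Gfi1 by 0.95 ± 0.47 and Gfi1 above Bcl11a by 2.03 ± 0.54, each in 4 of 4 libraries (exact p = 0.125, the smallest possible, adjusted over 10 comparisons 0.139). Myb was above Tox by 0.15 ± 0.12 in 4 of 4 libraries (exact p = 0.125, adjusted 0.139), but in the second deposited quantification the mean difference was -0.05 (exact p = 0.5). These neighbours therefore had no settled order. Bcl11a and Tox2 differed by -0.02 ± 0.61, with Bcl11a higher in 2 of 4 libraries (exact p = 1), which is less than the spread between libraries.

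Of the paralogs compared, Bcl11b, Myb and Gfi1 each had the highest level of their family, and Tox did not. Bcl11b exceeded Bcl11a by 5.26 ± 0.65 on the log2(TPM + 1) scale (SD, n = 4). Gfi1 exceeded Gfi1b, which acts in erythroid cells and platelets, by 2.87 ± 0.45, Myb exceeded Mybl1 by 3.78 ± 0.22 and Tox exceeded Tox2 by 2.96 ± 0.22. All 4 differences had the same sign in 4 of 4 libraries (exact sign-flip p = 0.125, adjusted 0.139). Tox3 at a mean of 0.105 TPM and Gfi1b at 0.268 TPM rested on means of 3.75 and 4 counts, close to the floor of 3 counts per library, so a difference from Gfi1b on a scale with a pseudocount understates the ratio of the levels. The exception was Tox4, a broadly expressed HMG box gene, whose mean of 35.3 ± 3.33 TPM lay above that of Tox. Mybl2, a cell cycle gene, had 2.94 ± 0.644 TPM.

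Variation between libraries was tested for every gene against the trend of all genes with edgeR's goodness-of-fit test and Benjamini-Hochberg adjustment. All 7 factors passed the filter on low counts, and 1 of them, Bcl11a, was called as varying at an adjusted p under 0.05. Over all 13118 genes tested, 183 were called, or 1.4%. The other 6 factors had an adjusted p of 1. Gfi1 and Tox had unadjusted p-values of 0.0428 and 0.0472, which did not survive adjustment.

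**Figure D2:**
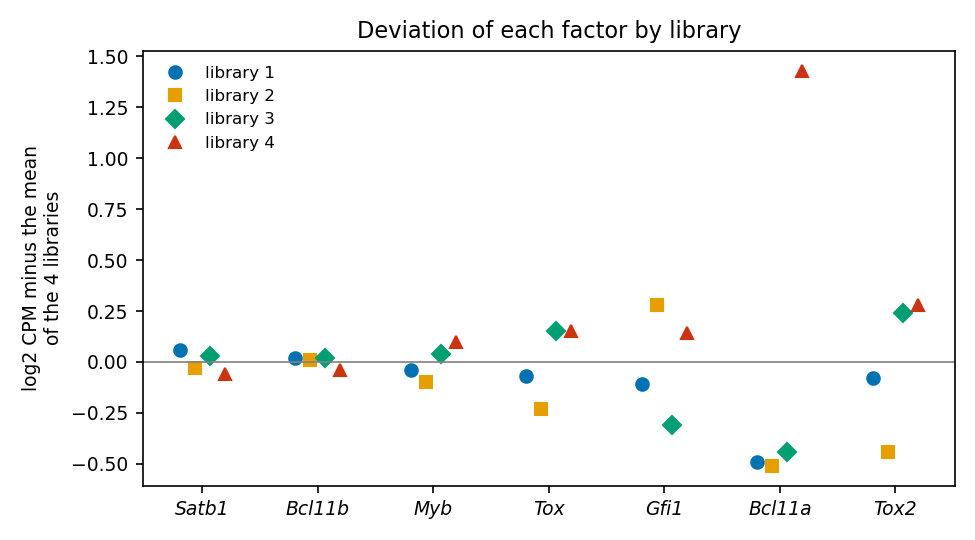
Deviation of each factor in each library from its own mean over the 4 libraries, in log2 CPM (counts scaled to library size, prior count 2), with each symbol 1 library. Satb1 and Bcl11b lie within 0.06 of their mean in every library, whereas Bcl11a is 1.43 above its mean in library 4.

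Bcl11b, the factor that seals T cell commitment, lies on chromosome 12, bases 107910403 to 108003602 on the minus strand of mm10. Its level was 83, 87, 85.9 and 85 TPM in libraries 1 to 4, from 6525 to 7756 counts. All libraries were alike: the coefficient of variation in CPM was 1.12%, near the 1.18% that counting error alone gives at this depth. None of the libraries stood above or below the others, including library 4 with its B cell and erythroid RNA.

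The Bcl11b message came in a pair of main coding forms that differ by a cassette exon. The exon, number 3 of the longer form Bcl11b-201, holds 216 bases, chr12:107965672-107965887 on the minus strand, or 72 codons with the reading frame kept. It is shown from the GENCODE M21 transcripts because the split between the forms turns on it, with the exon in capitals between the ends of its neighbours. In the skipping junction, from Bcl11b-203, the capitals mark the start of the exon that follows.
Bcl11b cassette exon: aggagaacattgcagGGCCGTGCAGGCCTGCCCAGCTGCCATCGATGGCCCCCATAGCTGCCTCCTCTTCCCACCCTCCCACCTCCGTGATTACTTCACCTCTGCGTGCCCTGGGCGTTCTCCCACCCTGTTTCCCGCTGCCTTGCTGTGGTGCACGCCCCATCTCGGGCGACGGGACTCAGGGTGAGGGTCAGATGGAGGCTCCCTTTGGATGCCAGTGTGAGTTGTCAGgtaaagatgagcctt
Bcl11b skipping junction: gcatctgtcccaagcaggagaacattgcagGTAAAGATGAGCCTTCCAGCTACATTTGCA

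Inclusion and skipping were close to balanced. The including form Bcl11b-201, of 884 codons, took 46.1%, 43.2%, 47.2% and 47.2% of the Bcl11b message in libraries 1 to 4, and the skipping form Bcl11b-203, of 812 codons, took 53.4%, 55.1%, 51.6% and 51.5%. The skipping form was the larger in each library, with means of 52.9 ± 1.70% and 45.9 ± 1.86% (SD, n = 4). The second quantification gave 52 ± 0.875% and 45.6 ± 1.14%. A form that lacks both middle coding exons held 1.17 ± 0.456%. The models also differ in length, 8111 bases for Bcl11b-201 and 2888 for Bcl11b-203, with the longer one extending further at its 3′ end, so these shares do not rest on reads over the exon alone.

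Satb1 lies on chromosome 17, bases 51736187 to 51833290, minus strand. It had 325, 322, 339 and 314 TPM in libraries 1 to 4, from 14528 to 17157 counts. The libraries differed little, with a coefficient of variation of 2.99% in CPM against 0.783% from counting error.

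Signal for Satb1 was spread over several annotated first exons, of which 6 are numbered 1 to 6 here from the most upstream. A coding model that begins further downstream held 0.215 ± 0.43% of the gene. In the first quantification the shares of starts 1 to 6 were 13.8, 8.96, 18.1, 20.9, 4.34 and 8.74% of the gene (means, n = 4), with SDs between 0.244 and 2.14 percentage points. Start 4 held the largest share of these, 18.4, 23.1, 22.2 and 19.9% in libraries 1 to 4, mainly through a coding transcript of 2896 bases at 20.3 ± 2.23%. Start 1, a transcript of 3461 bases, has a coding sequence of 764 codons, as long as those of the full models of starts 2 and 4. Start 3 rests on a partial model of 469 bases, whose share was 18.1% in the first quantification and 2.6% in the second. A noncoding model of 625 bases went the other way, from 3.36% to 20.3%. Start 4 held 23.8 ± 1.88% in the second quantification and was the largest of the 6 starts in both.

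The 250 bases before start 4 are shown because it held the largest share of the 6 starts in both quantifications, and those before start 3 of Gfi1, described next, because it led in the first. They are read from RefSeq promoters of GRCm38.p6, the assembly that mm10 names. Satb1 start 4 covers chr17:51826589-51826838 and Gfi1 start 3 covers chr5:107724344-107724593, both on the minus strand and written 5′ to 3′. Capitals mark matches on either strand to any of 5 core motifs. These were TGTGGT, which RUNX factors bind, and CTTTGA, which factors of the TCF and LEF family bind. The others were AGATAA, known from the GATA family that includes Gata3, and AGGAAG, which ETS proteins recognise. The last was the E box CACCTG.
Satb1 start 4: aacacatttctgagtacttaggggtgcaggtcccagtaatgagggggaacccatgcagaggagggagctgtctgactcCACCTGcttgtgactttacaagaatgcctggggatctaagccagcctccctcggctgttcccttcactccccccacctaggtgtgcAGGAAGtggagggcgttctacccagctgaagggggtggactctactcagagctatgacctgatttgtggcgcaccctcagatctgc
Gfi1 start 3: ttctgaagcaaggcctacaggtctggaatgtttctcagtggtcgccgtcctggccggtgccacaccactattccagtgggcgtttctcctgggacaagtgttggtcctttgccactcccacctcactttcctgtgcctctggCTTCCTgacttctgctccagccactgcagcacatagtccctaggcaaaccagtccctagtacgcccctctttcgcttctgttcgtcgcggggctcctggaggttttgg

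Before Satb1 start 4 there was 1 match to AGGAAG, beginning 86 bases before the start, and 1 to CACCTG at 172 bases. These distances are from the most upstream model of start 4, and the coding transcript of 2896 bases begins 22 bases further downstream. Before Gfi1 start 3 there was 1 match to AGGAAG, on the opposite strand at 108 bases, and none to the other motifs. Of 32851 promoters of the same length, 29.5% held AGGAAG and 17.2% held CACCTG, 14% held TGTGGT, 13.8% CTTTGA and 9.99% AGATAA. A match is a description of the letters and not a bound site.

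Transcripts of Satb1 annotated with a retained intron held 21.7 ± 0.503% of the gene (SD, n = 4), led by a model of 4857 bases at 13.3 ± 0.445%. The median over 6294 genes with such a transcript was 26.8%, and 39.9% of them lay below Satb1. In addition, 5 same-strand models of provisional status inside Satb1 had mean levels of 23.2 to 32.8 TPM. Their counts equalled 43, 42.7, 49.3 and 54.6% of those of Satb1 in libraries 1 to 4, highest in libraries 3 and 4. None of the 5 was called, with adjusted p-values from edgeR's goodness-of-fit test of 0.142 to 1. How reads were divided between these models and Satb1 sets part of the level of each. Gm6934, on the opposite strand, had 7.95 ± 0.523 TPM.

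Gfi1, the zinc finger repressor that recruits Kdm1a and Rcor1, lies on chromosome 5, bases 107716657 to 107726036, minus strand. Its level was 6.99, 10.5, 5.93 and 10.1 TPM in libraries 1 to 4, from 258 to 406 counts. Libraries 2 and 4 had the higher values and libraries 1 and 3 the lower ones. The 95% exact Poisson intervals in CPM were 15.7 to 19.9, 21.3 to 25.9, 13.9 to 17.8 and 19.7 to 24.6 in libraries 1 to 4, so that of library 4 overlapped that of library 1, and that of library 2 met neither library 1 nor library 3. These intervals cover counting error only, and Gfi1 was not called as varying (edgeR adjusted p = 1).

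Of the 3 annotated Gfi1 starts, the most downstream, start 3, held 50.1 ± 9.89% of the message (SD, n = 4). Start 2, shared by coding models of 2639 and 2648 bases, held 34.6 ± 0.848%, and start 1, a partial model, 15.3 ± 9.64%. The spread between libraries was wide for starts 1 and 3. In the second quantification starts 2 and 3 held 38.7 ± 9.36% and 37.6 ± 4.05%, so the leading start was not settled. The models of 2639 and 2648 bases took 30% and 4.63% in the first quantification, but 18.4% and 20.4% in the second, and their split is uncertain. A430072P03Rik, on the opposite strand, had 0.905 ± 0.488 TPM.

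Myb, which drives the growth and survival of early thymocytes, lies on chromosome 10, bases 21124935 to 21160984, minus strand. It had 17.8, 17.1, 19.4 and 20.5 TPM in libraries 1 to 4, from 797 to 893 counts. Libraries 3 and 4 were slightly above the other two, and the variation was not called (edgeR goodness of fit, adjusted p = 1).

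Most of the Myb signal did not lie in coding transcripts. Transcripts annotated with a retained intron took 72.6, 66.2, 66.1 and 60.4% in libraries 1 to 4, a mean of 66.3 ± 5.01%. Across 6294 genes with such transcripts the median share was 26.8%, and 95.2% of them lay below Myb. The signal was divided among Myb-202 at 28.6 ± 4.92%, Myb-206 at 19.1 ± 1.47% and Myb-205 at 18.7 ± 2.70%, of which the last pair are models of 1 exon. Both quantifications put these transcripts ahead of the coding forms, the second with 60.7 ± 2.96%.

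The coding forms of Myb differ by an extra exon of 357 bases, chr10:21144969-21145325 on the minus strand, which adds 119 codons to Myb-203. Its first 60 bases are shown in capitals after the end of the preceding exon, beside the junction that skips it in Myb-201, because the quantifications disagree on which form leads.
Myb extra exon: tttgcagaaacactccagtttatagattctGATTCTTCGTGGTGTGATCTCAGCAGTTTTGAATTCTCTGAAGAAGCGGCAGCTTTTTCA
Myb skipping junction: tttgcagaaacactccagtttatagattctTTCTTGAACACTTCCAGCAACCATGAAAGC

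Myb-203, of 755 codons, held 22.7, 23.4, 23 and 20.7% of the gene in libraries 1 to 4, and Myb-201, of 636 codons, 4.68, 10.4, 10.9 and 19%. The long form was the larger in each library, with means of 22.4 ± 1.22% and 11.2 ± 5.89% (SD, n = 4). In the second quantification the order turned, with 15.2 ± 1.45% for the long form and 24.1 ± 3.78% for the short one. The data therefore show both coding forms and no settled ratio.

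Tox, the HMG box factor, lies on chromosome 4, bases 6686353 to 6991557, minus strand. Its level was 15.2, 14, 19 and 19.5 TPM in libraries 1 to 4, from 773 to 968 counts. Libraries 3 and 4 were above libraries 1 and 2, with 95% exact Poisson intervals in CPM of 55.4 to 62.9 and 56.4 to 64.4 against 46.1 to 53.1 and 41.6 to 48. The edgeR goodness-of-fit test, which allows for the usual spread between libraries, did not call it (adjusted p = 1).

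The coding transcript Tox-201 held 54.4 ± 3.05% of the Tox message (SD, n = 4), and transcripts with a retained intron, Tox-204 and Tox-203 at 23.1 ± 4.10% and 22.5 ± 1.33%, the remaining 45.6 ± 3.05%. This retained share was above that of 80.2% of the 6294 genes with such a transcript. The second quantification gave the coding form 44.9 ± 1.95% and the retained forms 41.5 ± 4.55%, and placed 13.6 ± 5.79% on Tox-202, a noncoding model that had none in the first.

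Tox2, the paralog known from follicular helper and exhausted cells, lies on chromosome 2, bases 163203125 to 163324170, plus strand. It had 1.57, 0.82, 1.24 and 1.56 TPM in libraries 1 to 4, from 32, 27, 43 and 40 counts. Its counting error alone was 16.8%, and the 95% exact Poisson intervals of all 4 libraries overlapped. Such overlap is not a test of a difference, and edgeR's goodness-of-fit test did not call the variation of Tox2 (unadjusted p = 0.494). No Tox2 form could be placed first: the coding model of 2947 bases ranged from 22.9% to 53.4% over the libraries and that of 1675 bases from 0 to 77%.

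Bcl11a, known as a factor of B cells, plasmacytoid dendritic cells and the silencing of fetal globin, lies on chromosome 11, bases 24078056 to 24174123, plus strand. Its level was 0.63, 0.92, 0.86 and 3.4 TPM in libraries 1 to 4, from 60, 65, 66 and 223 counts. Library 4 was high and the others were alike. In CPM the values were 3.81, 3.76, 4.03 and 15.3, and the 95% exact Poisson interval of library 4, 13.4 to 17.5, did not meet those of the others, which reached 5.13 at most.

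Bcl11a had an adjusted p of 3.43e-07 in edgeR's goodness-of-fit test, and 55 of the 183 called genes had a larger statistic. The gene deviated from its mean by -0.49, -0.51, -0.44 and 1.43 in log2 CPM in libraries 1 to 4. The call rested on library 4: without it the adjusted p was 1, and 0 of the 7 factors were called. Of all genes called, 73 were likewise farthest from their mean in library 4 and above it.

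The summed B cell, plasmacytoid dendritic and erythroid markers were highest in library 4, as Bcl11a was. Lists of other cells did not rise as clearly. Monocyte and macrophage markers summed to 27.1, 29.5, 24.7 and 28.3 TPM in libraries 1 to 4, and natural killer markers to 46.8, 43.3, 43.2 and 48.8 TPM. Dendritic markers summed to 4.46, 1.58, 1.78 and 3.73 TPM, and progenitor markers to 1.88, 2.63, 2.46 and 3.47 TPM. Of 10 B cell markers, 8 could be tested and all 8 were called by the edgeR test, against 1.4% of all genes tested. Each of the 8 was highest in library 4. Among them, Pax5 had 0.22, 0.85, 0.54 and 9.19 TPM and Cd79a 1.39, 1.5, 1.19 and 12.6 TPM in libraries 1 to 4. Of 10 plasmacytoid dendritic markers, 6 could be tested, and Irf8 and Pld4 were called, against 1.4% of all genes tested. The 10 had a summed level of 60 TPM in library 4 against 36.8 to 44.8 TPM in the others. The defining marker Siglech, at 1.2, 0.77, 0.88 and 2.34 TPM, was not called. Without library 4, 0 of the markers of these 2 cell types were called. The erythroid markers Hba-a1, Hba-a2 and Hbb-bs were called with and without library 4, while the erythroid factor Klf1 had a mean of 0.302 TPM. The part of these cells in the Bcl11a level was not tested, and in bulk RNA a larger share of cells with a transcript and more of it per cell cannot be told apart.

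**Figure D3:**
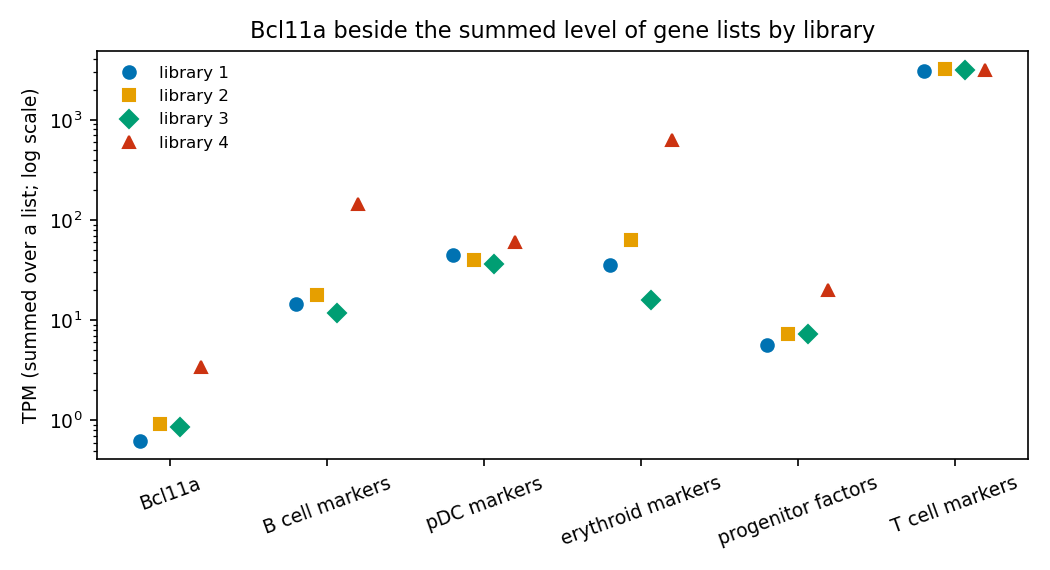
Level of Bcl11a in TPM beside the TPM summed over 5 gene lists (vertical axis, log scale) in libraries 1 to 4, with each symbol 1 library; pDC stands for plasmacytoid dendritic cells. Library 4 is highest for Bcl11a, B cell markers (146 TPM), erythroid markers (634 TPM) and progenitor factors (19.8 TPM), while the T cell markers are at 3073 to 3187 TPM in every library.

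The genes with the pattern most like that of Bcl11a over the 4 libraries, by the root mean square difference of their log2(TPM + 1) deviations among 10133 protein-coding genes, were Mzb1 (0.0293), Dok3 (0.0562) and Fcrla (0.0795). Mzb1 had 0.53, 0.73, 0.66 and 2.94 TPM in libraries 1 to 4. With log2 CPM in place of log2(TPM + 1), 1 of these 3, Dok3, was again among the nearest, and it was followed by Cd22. The coding transcripts of Bcl11a held 76.9 ± 7.63% of its message and the retained-intron model Bcl11a-205 held 23.1 ± 7.62%. Its largest coding forms, Bcl11a-202 at 40.7 ± 18.5% and Bcl11a-201 at 30.1 ± 26.5%, differed by less than their spread. The 4 antisense models that overlap Bcl11a, Myb and Tox had 0 counts in every library.

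**Figure D4:**
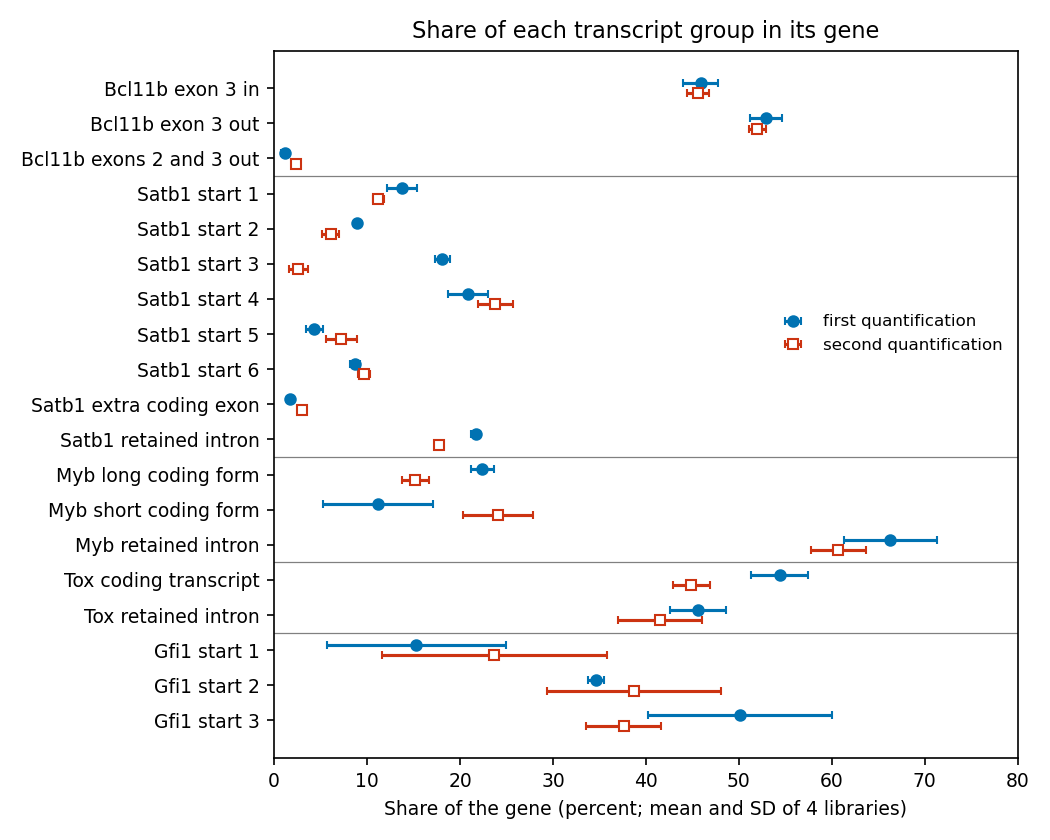
Share of each transcript group in its gene in percent (horizontal axis), as the mean and SD of 4 libraries, in the first (filled circles) and second (open squares) deposited quantification. The Bcl11b forms with exon 3 in and out lie at 45.9 and 52.9% and nearly coincide in both, whereas Satb1 start 3 and the Myb coding forms differ between them; the extra coding exon of Satb1 is 1 of the transcripts counted under start 6.

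The partners of these factors were examined as lists. Of 14 T cell identity factors, all 14 had at least 10 TPM in every library, against 45.1% of all genes tested, and the median of their means was 55.9 TPM against 9.53 TPM. Tcf7 led with 430 ± 11.2 TPM (SD, n = 4), above Satb1, followed by Ets1 at 282 ± 7.07 TPM, Lef1 at 236 ± 13.9 TPM and Foxp1 at 232 ± 29.2 TPM. None of the 14 was called as varying by edgeR's test, against 1.4% of all genes tested, and DESeq2 marked 0 as dispersion outliers. At an unadjusted p under 0.05 there were 0, against 603 of all 13118 genes. In a list of this size, 0 lies near these shares.

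The NuRD and co-repressor genes, whose products Bcl11b and Gfi1 recruit, were present nearly in full. The 20 listed genes also include the acetyltransferase genes Ep300 and Crebbp. Of the 20, 19 had at least 10 TPM in every library, against 45.1% of all genes tested. The median of their means was 44 TPM against 9.53 TPM. Chd3 and Chd4, both ATPases of NuRD, had 238 ± 22.6 and 103 ± 4.65 TPM, and Ncor1 had 163 ± 4.99 TPM and Ctbp1 75.1 ± 6.27 TPM. The gene below was Rcor2, named after its values were seen, at 0.545 ± 0.179 TPM. By edgeR's test 0 of the 20 were called, against 1.4% of all genes tested, and DESeq2 marked 0. At an unadjusted p under 0.05 there were 0, against 603 of all 13118 genes. In a list of this size, 0 lies near these shares.

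Progenitor factors that T cell commitment shuts off had low levels. Of 12 listed genes, 1 had at least 1 TPM in every library, Kit at 1.81 ± 0.655 TPM, and the median of the means was 0.682 TPM. Kit was 1 of the 6 that could be tested, and 87% of all genes tested reached this level. Among the 6 tested, Mef2c and Lmo2 were called (edgeR adjusted p = 1.83e-22 and 0.00476), against 1.4% of all genes tested. DESeq2 marked 1 of the list, against 154 of all 13118 genes. Mef2c had 0.8, 1.04, 0.89 and 6.01 TPM and Lmo2 0.43, 1.31, 1.51 and 3.09 TPM in libraries 1 to 4. Both were highest in library 4, as the B cell markers were, and without library 4 neither was called, while the call of Lmo2 was also lost without library 1. The remaining gene of the leading 4 was Hhex, at 0.858 ± 0.876 TPM.

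Genes of the thymocyte stages ranged from undetected to abundant. Rag1 and Rag2, which rearrange receptor genes, had no counts in any library, which allows a level of up to 0.206 CPM in the shallowest library for counting error only. Ptcra had a mean of 0.0125 TPM, whereas Dtx1, a Notch target, had 94.2 ± 9.94 TPM and Themis 73 ± 7.28 TPM, followed by Ccr9 at 18.1 ± 1.32 TPM and Cd1d1 at 12.1 ± 1.84 TPM. Of 13 listed genes 7 could be tested and 1 was called, against 1.4% of all genes tested. The called gene was Cd24a, with 0.39, 1.02, 1.11 and 5.14 TPM in libraries 1 to 4 (edgeR adjusted p = 1.77e-09). It was highest in library 4, and was not called without it.

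Natural killer genes that Bcl11b restrains were detected at modest levels. Of 12 listed genes 11 had at least 1 TPM in every library. These were the 11 that could be tested, and 87% of all genes tested reached this level. The median of the means was 4.97 TPM over the 12 listed genes, against 9.53 TPM over all genes tested. By edgeR's test 0 of 11 tested were called, against 1.4% of all genes tested, and DESeq2 marked 0. At an unadjusted p under 0.05 there were 0, against 603 of all 13118 genes. In a list of this size, 0 lies near these shares. Il2rb at 55.3 ± 2.86 TPM, Id2 at 54.4 ± 2.18 TPM and Klrd1 at 50.5 ± 4.42 TPM led, followed by Eomes at 7.91 ± 1.39 TPM, and T cells themselves are known to express these. The defining receptor gene Ncr1 had 0.62 ± 0.265 TPM, whereas Tyrobp, Fcer1g and Klrb1c had 5.6 ± 1.64, 3.4 ± 0.665 and 3.39 ± 0.425 TPM. Which cells these transcripts came from was not tested.

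Exhaustion and follicular helper genes, the settings in which Tox and Tox2 are best known in mature cells, were examined as lists too. Of 11 exhaustion genes 9 had at least 1 TPM in every library. These 9 were among the 10 that could be tested, and 87% of all genes tested reached this level. The median of the means was 5.38 TPM over the 11 listed genes, against 9.53 TPM over all genes tested. Nr4a1 had 20.6 ± 3.30 TPM, Nr4a3 19.2 ± 4.23 TPM and Nr4a2 8.47 ± 0.995 TPM, and Pdcd1 had 1.83 ± 0.382 TPM and Havcr2 0.125 ± 0.0866 TPM. Ctla4, with 14.2, 22.9, 25.4 and 18.6 TPM in libraries 1 to 4, was the gene called (edgeR adjusted p = 0.0331). That is 1 of 10 tested, against 1.4% of all genes tested. At an unadjusted p under 0.05 there were 5 of 10 genes tested, Ctla4, Entpd1, Lag3, Nr4a3 and Tigit, against 603 of all 13118, and DESeq2 marked 0 of the list. The low Ctla4 value was in library 1, and the call was lost without library 1, 2 or 3. Without library 4, Ctla4 and Nr4a3 were called.

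Of 11 follicular helper genes 9 had at least 1 TPM in every library. These were the 9 that could be tested, and 87% of all genes tested reached this level. The median of the means was 4.42 TPM over the 11 listed genes, against 9.53 TPM over all genes tested. Slamf6 at 49.2 ± 8.08 TPM, Btla at 22.3 ± 1.51 TPM, Sh2d1a at 16.9 ± 1.47 TPM and Icos at 16.8 ± 1.32 TPM led the list. Bcl6, the factor that defines these cells, had 3.75 ± 0.491 TPM, and Ascl2 and Il21 had means of 0.0625 and 0.372 TPM. With all libraries edgeR's test called 0 of 9 genes, against 1.4% of all genes tested, and DESeq2 marked 0. At an unadjusted p under 0.05 there were 2, Cxcr5 and Maf, against 603 of all 13118 genes. Without library 4, Maf was called. Pdcd1 is in both lists.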

How the data were processed

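Total RNA of 4 splenic T cell samples of 1 group was sequenced with a directional library kit, per the labels' protocols. Values refer to mm10 and GENCODE M21, per the text deposited with the libraries. For the aligner, the quantifiers and the strand setting of the counting, the names are not given in the sources here. The authors deposited expected counts for each gene and transcript without normalization. In the deposited TPM, these were divided by effective length and scaled to a fixed total, to which spike-ins and transfer RNAs also contribute. Transcript shares are the percent values that the authors deposited. A second deposited transcript table, with its own TPM, was summed per gene. As the reference is C57BL/6, reads with CAST/EiJ variants could be lost.

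Levels are the mean and SD of TPM over 4 libraries. Expected counts were rounded and tested with edgeR 4.0.16 in R 4.3.3 (goodness of fit, intercept only, trended dispersion, TMM, filterByExpr, Benjamini-Hochberg at 0.05). DESeq2 1.42.0 was an alternative. Numeric identifiers, at most 8.75e-05% of counts, and spike-ins, 0.299 to 0.347%, stayed out of library sizes and tests. A floor of 3 counts equals 0.174 to 0.206 CPM. Without molecular identifiers, intervals and floors cover counting error only. Python 3.11.15, pandas 2.3.3, scipy 1.17.1 and matplotlib served for the remaining steps, and the tests were tried on simulated data. RefSeq promoters of GRCm38.p6 were matched by symbol for 6 of the 7 factors.

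The factors and gene lists were chosen with earlier results of these data known, and the transcript groups, by first exon, cassette exon or annotated class, after the transcript values had been seen. Named genes are the 7 factors, 5 paralogs, up to 4 genes of each list by mean TPM and every called one. Other members of a list that are given beside these, and the B cell and erythroid markers, were named after their values were seen. Named transcripts held at least 10% in either quantification. The 3 genes nearest in pattern are given for Bcl11a, the factor with the largest SD of log2(TPM + 1), which is also the called one. A few genes that fall under these rules are not reported here, but the sums and counts of lists include them.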

Additional observations from a re-analysis of the deposited data

Results flagged for a closer look

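Of 40 values of 4 libraries each, 2 had 1 library far from the other 3 by Dixon's criterion, a rule by which chance marks about 1 in 20 such groups. The Bcl11a level was 3.4 TPM in library 4 against 0.63 to 0.92 TPM in the others. The difference between Bcl11b and Bcl11a on the log2(TPM + 1) scale was 4.29 in library 4 against 5.52 to 5.69, which follows from the same Bcl11a value.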

How the results depend on the processing

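No paired analysis was possible because there is 1 group. In the second quantification 6 of 7 levels moved by more than 1 SD, all upward: Bcl11b 101, Satb1 420, Gfi1 11.5, Myb 23.6, Tox 24.5 and Tox2 2.26 TPM. Over protein-coding genes the median ratio of the second to the first TPM was 1.32. The difference between Myb and Tox reversed to -0.05. Shares that moved were 2.34% for Bcl11b lacking exons 2 and 3, 11.2, 6.11, 2.6, 23.8, 7.25 and 9.68% for Satb1 starts 1 to 6, 2.97% for its extra coding exon and 17.7% for its retained introns, 38.7 and 37.6% for Gfi1 starts 2 and 3, 15.2, 24.1 and 60.7% for the long, short and retained-intron forms of Myb, and 44.9 and 41.5% for the coding and retained-intron forms of Tox. The cause was not tested.

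Leaving out 1 library at a time, Bcl11a minus Tox2 ranged from -0.28 to 0.20, reversing to 0.20 without library 1 and to 0.07 without library 3. The number of genes called ranged from 116 to 146, of which 85 of the 116 without library 4 were also among the 183, and that of factors from 0 to 1. Without library 4 the adjusted p of Bcl11a was 1. In counts chosen after seeing the data, progenitor factors called ranged from 0 to 2, thymocyte genes from 0 to 1, exhaustion genes from 0 to 2 and follicular helper genes from 0 to 1. Without a filter on low counts 279 of 23727 genes were called, with spike-in scaling 123 and with DESeq2 dispersion outliers 154, and Bcl11a was called in each of these. A pseudocount of 0.1 changed no direction among the 10 differences. Depth limits Tox2 and Bcl11a, with 27 to 43 and 60 to 223 counts.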
